A study of Mus musculus with 32 samples.

Results

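Myc and Mycn encode the MYC and MYCN transcription factors, and 89 peaks of N6-methyladenosine (m6A), a methyl mark on adenosines inside RNA, lay on them in 16 deposited peak lists that held 496760 peaks. A peak was assigned to a gene when its summit, the position of highest signal, lay in the mm10 body of that gene and of no other gene. Myc (gene ID 17869, chromosome 15, 61985341 to 61990361, plus strand, 5021 bp) held 47 peaks and was marked in 14 of the 16 libraries. Mycn (gene ID 18109, chromosome 12, 12936093 to 12941836, minus strand, 5744 bp) held 42 peaks and was marked in all 16 libraries. These are 2 of 14724 genes with a peak in at least 1 library, of 49980 in the gene table. No other gene of the table overlapped either body, and no list had a peak within 10000 bp outside either gene.

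The m6A marks were mapped by antibody enrichment and sequencing of RNA fragments (MeRIP-seq) in mouse embryonic stem cells of strain C57BL/6. Cells of the 2 lines were labelled Mettl14 CKO and Mettl14 Control, or Mettl3 CKO and Mettl3 Control; CKO commonly stands for conditional knockout, and the labels give neither the deletion's completeness nor the control cells' alleles. METTL3 and METTL14 are the catalytic subunit and its partner in the m6A methyltransferase. From each kind of cell, chromatin-associated RNA freed of ribosomal RNA (caRNA) and polyadenylated RNA (mRNA) were profiled in 2 immunoprecipitation libraries each, which made 8 groups of 2. All groups were grown with LIF at 1000 U/ml, CHIR99021 at 3 µM and PD0325901 at 1 µM, the last of which inhibits the MEK kinase. Nothing in the labels says that replicates were separate cultures, so p-values reflect only how far these libraries spread, and that spread may be technical.

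MYC and MYCN are related proteins that bind DNA together with MAX and drive genes of growth, ribosome production and metabolism. MXD proteins, MNT and MGA compete for MAX and act mainly as repressors. In embryonic stem cells both MYC genes are active and support proliferation and self-renewal, and their messages are short-lived. The IGF2BP proteins, a family of m6A readers, are known to bind MYC messages.

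The caRNA lists held 37955 to 45241 peaks and the mRNA lists 16537 to 23380, the shortest being the 2 Mettl14 Control mRNA lists. Read depth is unknown, and fold enrichment, the caller's ratio of immunoprecipitated signal over background, is the authors' value for each peak. Folds of different lists therefore stand side by side here, with no test between them. These are bulk samples, so fewer cells of a type and less RNA per cell cannot be told apart, and a missing peak can also mean less methylation or less depth. Of 10 embryonic stem cell markers, 5 had peaks in all 16 libraries, Sox2 had none under the assignment rule, and 6 to 9 were marked in each library. Of 10 fibroblast feeder markers, Col1a2 and Pdgfrb had peaks in all 16 libraries and Lum in none under that rule. Between 3 and 9 fibroblast markers had a peak in each library, and their part in the results was not tested.

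The start of Mycn held a peak in caRNA that no mRNA list had. All 8 caRNA libraries had a summit 70 to 150 nt from the gene start, on the gene's own strand, with fold enrichments between 4.47 and 9.95, and 0 of the 8 mRNA libraries did. The mRNA lists are much shorter, and of 15686 regions with a peak in all 8 caRNA libraries, 16.4% had none in any mRNA library. The transcript bases 17 to 46 are shown because all 8 of these peaks overlapped them and 5 covered them whole (RefSeq promoter table, GRCm38.p6, chr12:12941791-12941820, minus strand). The capitals mark GGAC, the core letters of the consensus that the m6A methyltransferase is known to prefer.
Mycn start: ctGGACgcgctgggtggatgcggggggctc
A search for GGAC found 1 match on the transcript strand, beginning at base 19, and none on the other strand of this stretch. GGACT, which contains GGAC, was not found on either strand. Among 32851 RefSeq promoter entries, the first 50 transcribed bases held GGAC in 18.9% on the transcript strand and in 17.4% on the other strand, and GGACT in 5.76% and 4.87%. Those 50 bases are a longer window than the 30 printed, so the shares are not rates for a stretch of 30 bases. All 8 summits lay downstream of the printed stretch, so the match is a description of the letters and not a mapped site. Myc was not in the promoter table, and exons and introns were not annotated in the gene table used.

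**Figure D1:**
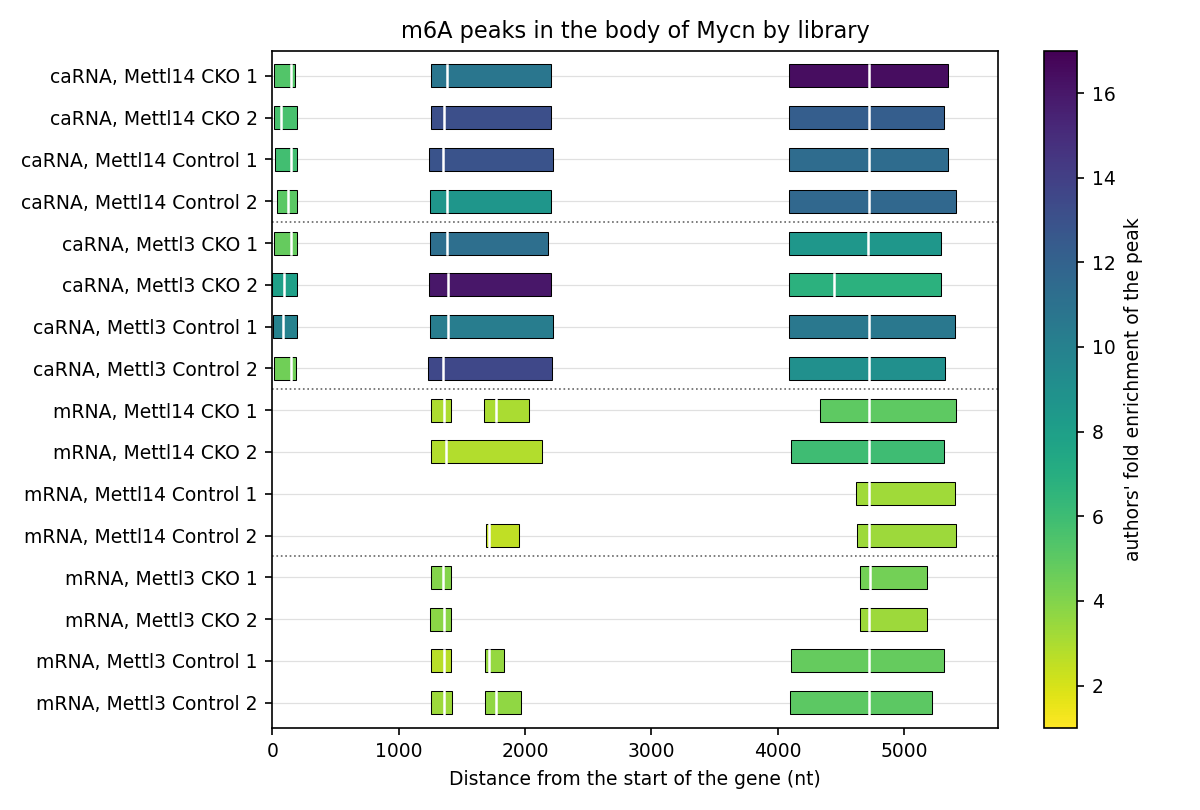
Peaks in the body of Mycn in each of the 16 libraries (rows), as bars from peak start to peak end with the summit as a white line; the horizontal axis is the distance from the gene start in nt and the colour is the authors' fold enrichment. The 8 caRNA rows share 3 positions, and the bar at the gene start is missing from every mRNA row.

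The other Mycn summits fell at few positions. A peak with its summit 1349 to 1388 nt from the gene start was present in 14 libraries, all 8 of caRNA and 6 of mRNA. In 4 mRNA libraries a separate summit lay 1715 to 1767 nt from the start. Near the 3′ end, 15 libraries had a summit 1017 to 1030 nt before the gene end, a span of 13 nt over both RNA fractions, both lines and both genotypes. The caRNA library Mettl3 CKO 2 instead had its 3′ summit 1297 nt before the end.

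Myc peaks fell near its start, at a pair of internal positions and near its end. The start-proximal summit, 349 to 438 nt from the gene start, was present in 11 libraries, 4 of caRNA and 7 of mRNA. An internal summit at 2166 to 2207 nt was present in 9 libraries, and another at 2644 to 2718 nt in 10. The broad 3′ peaks had their summit either 422 to 486 nt before the gene end, in 9 libraries, or 716 to 910 nt before it, in 6 libraries. In Mettl14 Control caRNA, each replicate had 1 peak, 1039 and 1020 bp wide, over both internal positions. Of the 47 Myc peaks, 45 lay on the gene's strand and 2 on the opposite strand.

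**Figure D2:**
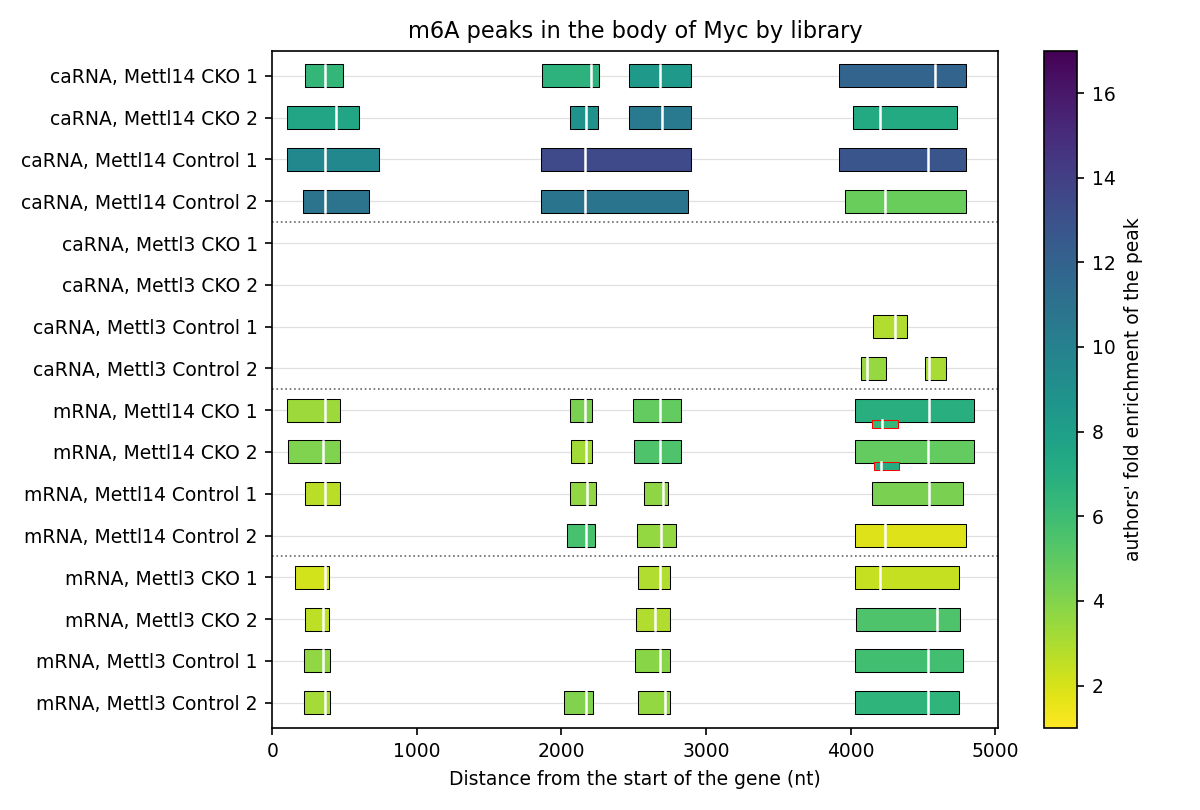
Peaks in the body of Myc in each of the 16 libraries (rows), drawn as bars with the summit as a white line against the distance from the gene start in nt; colour is the authors' fold enrichment, and small bars outlined in red are antisense peaks. Both Mettl3 CKO caRNA rows are empty, and the 2 antisense peaks lie in the Mettl14 CKO mRNA rows.

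The comparison of CKO with control cells asked whether m6A peaks depend on the enzyme subunits. A gene or region was called lost when both control libraries and no CKO library had a peak, gained in the opposite case, and retained when all 4 libraries had one. Myc was lost in caRNA of the Mettl3 line and retained in the other 3 comparisons, and Mycn was retained in all 4. With 2 libraries against 2, an exact permutation test cannot go below p = 0.333, so these calls carry no test and are set beside the share of all genes with the same call.

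In caRNA of the Mettl3 line, Myc had no peak in either CKO library, against 1 peak in replicate 1 and 2 peaks in replicate 2 of the control. Those control peaks were weak and lay near the 3′ end. The strongest had fold enrichments of 2.90 and 3.54, at percentiles 10.5 and 22.5 of their lists, and covered lengths in the control libraries were 237 and 323 bp. Among 10502 genes marked in both controls, 5.9% were lost, and among the 448 of them whose strongest peak was no higher than that of Myc in both controls, 9.6% were. The region at 61989414 to 61989734 was lost, as were 16.4% of regions marked in both controls, and the remaining region had a peak in 1 control library only. None of these control peaks was among the 10000 strongest of its list, so with lists of that length Myc was unmarked in all 4 libraries. With regions matched by summits within 100 nt, no region was lost there. In the same comparison 8 and 9 fibroblast markers had a peak in CKO libraries, against 3 and 4 in control libraries. Mycn was retained there, as were 88.8% of genes marked in both controls. Its strongest peaks had fold enrichments of 11.2 and 16.01 in CKO libraries, against 10.6 and 13.5 in control libraries, and these ranges overlap.

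In caRNA of the Mettl14 line both genes were retained, as were 88.2% of genes marked in both controls. The strongest Myc peak had fold enrichments of 11.9 and 10.4 in CKO libraries, against 13.4 and 10.9 in control libraries. Myc peaks covered 1977 and 1847 bp in CKO libraries and 2550 and 2312 bp in control libraries, so both CKO lengths were below both control lengths; 49.0% of retained genes had this order. All 3 Myc regions were retained, as were 72.4% of regions marked in both controls. At the start, Myc had folds of 6.38 and 7.62 in CKO libraries, against 9.53 and 10.9 in control libraries. Over the internal positions the strongest folds were 8.39 and 10.4 in CKO libraries, against 13.4 and 10.9 in control libraries. Those CKO summits lay 2680 and 2696 nt from the gene start, and both control summits 2166 nt from it. These 2 of 3 Myc regions had both CKO folds below both control folds, as did 33.1% of retained regions.

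All 3 Mycn regions were retained in caRNA of each line, and 73.6% of regions marked in both controls were retained in the Mettl3 line. In the Mettl14 line the 3′ region had folds of 16.5 and 12.3 in CKO libraries, against 11.4 and 11.6 in control libraries. It was the 1 of 3 Mycn regions with both CKO folds above both control folds, an order seen in 25.6% of retained regions. In the Mettl3 line the same region had folds of 8.56 and 6.80 in CKO libraries, against 10.6 and 9.03 in control libraries. Both CKO folds were thus below both control folds, as in 33.5% of retained regions. The summit with 6.80 was the one 1297 nt before the gene end. The internal Mycn region reached 11.2 and 16.01 in Mettl3 CKO caRNA, against 10.3 and 13.5 in Mettl3 Control caRNA. At the gene start the folds were 4.79 and 7.96 in Mettl3 CKO libraries, against 9.95 and 4.47 in Mettl3 Control libraries. The control replicates of the start peak thus spread over a wider range than the CKO replicates, and the groups overlap.

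**Figure D3:**
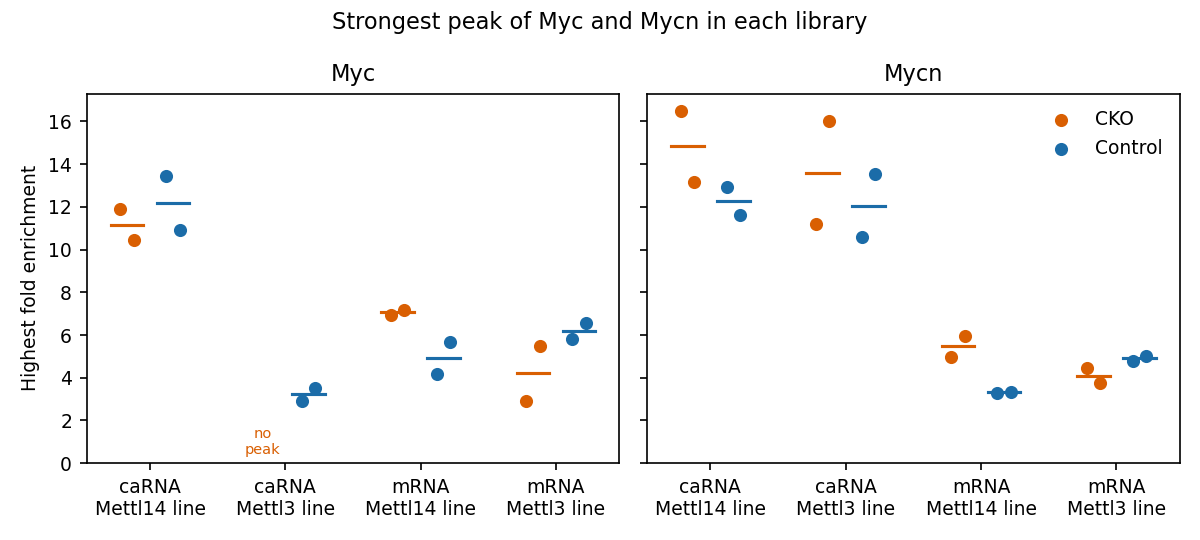
Authors' fold enrichment of the strongest Myc peak (left) and Mycn peak (right) in each library, by RNA fraction and line on the horizontal axis; points are libraries, CKO left of control, and lines are the means of 2. Mycn lies at 10.6 to 16.5 in caRNA of both lines, whereas Myc lies at 10.4 to 13.4 in caRNA of the Mettl14 line and at no more than 3.54 in caRNA of the Mettl3 line.

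In mRNA of the Mettl3 line both genes were retained, as were 90.3% of genes marked in both controls. The 3′ Myc peak had folds of 2.43 and 5.48 in CKO libraries, against 5.82 and 6.57 in control libraries. The summit with 2.43 lay 815 nt before the gene end, and the others 422 to 486 nt before it. The start-proximal Myc peak had 2.12 and 2.57 in CKO libraries, against 3.68 and 3.18 in control libraries. At the internal position 2644 to 2718 nt from the start the folds were 2.93 and 2.89 in CKO libraries, against 3.87 and 3.59 in control libraries. All 3 retained Myc regions thus had both CKO folds below both control folds, an order seen in 26.5% of retained regions. Covered lengths of Myc overlapped between the groups, at 1177 and 1129 bp in CKO libraries and 1166 and 1328 bp in control libraries.

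Mycn had less covered length in Mettl3 CKO mRNA than in its control. Its peaks covered 698 and 695 bp in CKO libraries, against 1523 and 1574 bp in control libraries, and the groups did not overlap. Both CKO lengths were below both control lengths in 37.5% of retained genes. The ratio of group means was 0.450 for Mycn, and 206 of 7573 retained genes (2.72%) had a ratio at or below it, with a median over those genes of 0.950. Of the Mycn regions, 2 were retained, where 80.3% of regions marked in both controls were. The region at 12939870 to 12940156, with control folds of 3.52 and 3.65, was lost, as were 10.2% of regions. With the 10000 strongest peaks of each list, Mycn was unmarked in this comparison.

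The 3′ Mycn peak was 534 and 528 bp wide in Mettl3 CKO mRNA, against 1213 and 1122 bp in Mettl3 Control mRNA, with its summit in the same place. The median peak width of these lists was 249 bp in both CKO libraries and 278 and 276 bp in the control libraries. Its folds were 4.43 and 3.36 in CKO libraries, against 4.80 and 5.04 in control libraries. At the internal position 1349 to 1388 nt from the start the folds were instead 3.98 and 3.76 in CKO libraries, against 2.69 and 3.37 in control libraries. Of the 2 retained Mycn regions, 1 therefore had both CKO folds below and 1 both above the control folds, and the second order was seen in 22.9% of retained regions.

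In mRNA of the Mettl14 line both genes were again retained, as were 96.6% of genes marked in both controls. These control lists were the shortest of the series, with 16537 and 17738 peaks, against 23380 and 22654 peaks in the CKO lists. The internal Myc region near 2644 to 2718 nt had folds of 4.84 and 5.47 in CKO libraries, against 3.70 and 3.58 in control libraries. The 3′ Myc region had 6.94 and 4.82 in CKO libraries, against 4.20 and 1.86 in control libraries. The summit with 1.86 lay 784 nt before the gene end, and the others 476 to 486 nt before it. The other internal Myc region had 4.21 and 3.21 in CKO libraries, against 3.67 and 5.67 in control libraries. Both CKO folds were above both control folds in 2 of the 3 retained Myc regions, where 69.7% of all retained regions had this order, so the Myc share lay near the background. Of regions marked in both controls, 91.4% were retained.

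The 3′ Mycn region in Mettl14 mRNA had folds of 4.98 and 5.97 in CKO libraries, against 3.30 and 3.32 in control libraries. Its peak was 1077 and 1214 bp wide in CKO libraries and 786 bp wide in each control library. Covered lengths of Mycn were 1592 and 2093 bp in CKO libraries, against 786 and 1050 bp in control libraries. Those of Myc were 1859 and 1836 bp in CKO libraries, against 1214 and 1231 bp in control libraries. Both CKO lengths lay above both control lengths for both genes, and for 66.3% of retained genes. The Mycn ratio of means was 2.01, with 706 of 6823 retained genes (10.3%) at or above it and a median of 1.22, and the Myc ratio was 1.51. The direction of the Mycn difference in covered length was thus opposite in mRNA of the 2 lines. In caRNA the CKO effects on Mycn covered length had the same sign, at -54.5 bp in the Mettl14 line and -95.5 bp in the Mettl3 line. The difference of the CKO effects between lines, over both RNA fractions, was 909 bp (Mettl14 line minus Mettl3 line). This difference did not pass after Benjamini-Hochberg adjustment over 12 such differences (exact permutation p = 0.0108, adjusted p = 0.130). The permutation exchanged line labels within each RNA fraction and genotype, so it does not isolate the difference of the CKO effects.

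The 2 antisense peaks were in the Mettl14 CKO mRNA libraries alone, and the region at 61989486 to 61989678 was called gained, as were 25.6% of regions marked in both CKO libraries. Their folds were 6.33 and 7.19, and no control library had a peak on that strand. Both lay 805 to 810 nt before the Myc end, opposite the broad sense peak of the same libraries. Their −log10 q values were 25.8 and 31.8, against 161 and 107 for that broad sense peak. The lowest values of the sense Myc peaks in the same libraries were 36.4 and 32.1. No other library had an antisense peak in either gene.

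**Figure D4:**
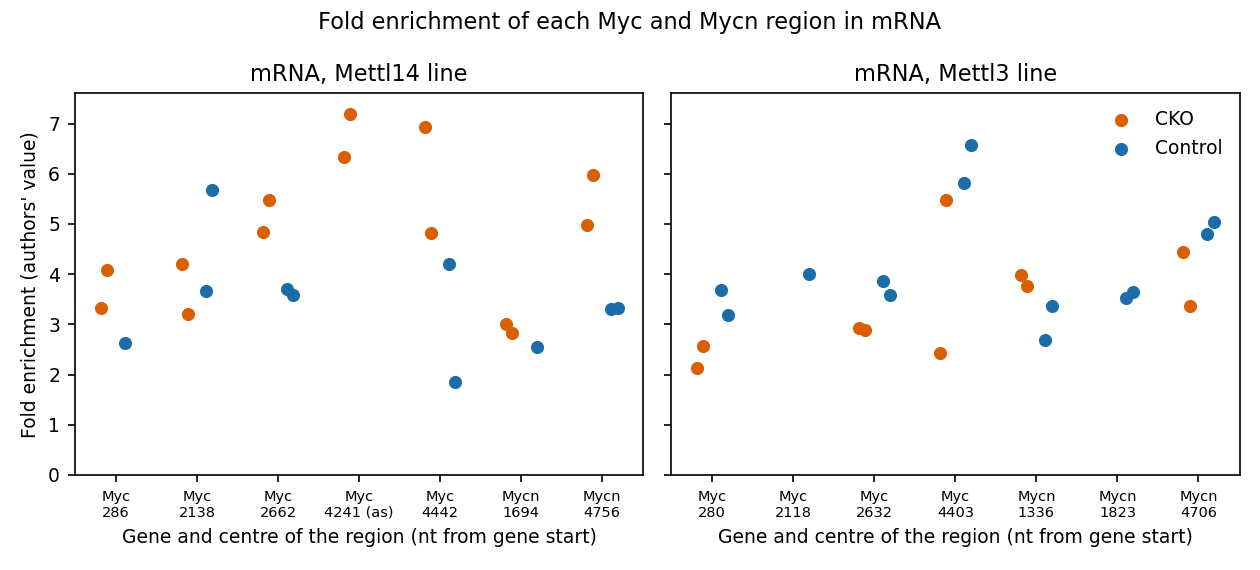
Authors' fold enrichment of every Myc and Mycn region in mRNA, Mettl14 line left and Mettl3 line right; points are libraries, CKO left of control, labels give the gene and the centre of the region in nt from the gene start, (as) marks the antisense region, and a missing point is a library without a peak. The 3 retained Myc regions of the Mettl3 line have both CKO points below both control points.

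Over all 4 comparisons, no CKO effect on either gene passed the test. An exact two-sided permutation test of CKO and control labels within each comparison (all rearrangements, smallest p 0.00154) gave p-values that were adjusted over all 14724 genes. Myc had 3.00 ± 2.00 peaks in CKO libraries and 2.88 ± 0.991 in control libraries (SD, n = 8 each), a difference of 0.125 (exact permutation p = 1.0). Mycn had 2.63 ± 0.518 peaks in CKO libraries and 2.63 ± 0.744 in control libraries (SD, n = 8 each, exact permutation p = 1.0). Covered length of Myc was 1228 ± 823 bp in CKO libraries and 1295 ± 820 bp in control libraries, a difference of -67.0 bp (exact permutation p = 0.591, adjusted p = 0.811). That of Mycn was 1813 ± 737 bp in CKO libraries and 1832 ± 687 bp in control libraries (exact permutation p = 0.901, adjusted p = 1.0). The same exact permutation test called 0.0% of genes for peak number and 0.0% for covered length after adjustment, with 849 and 2394 genes at an unadjusted p under 0.05. Only 23 genes for peak number and 208 for covered length reached the smallest p. These were too few for any gene to pass the adjustment over 14724 genes. The 0.0% shares thus do not show that no gene changed. How many genes would reach such p-values by chance was not estimated, so these counts do not show that genes changed either.

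**Figure D5:**
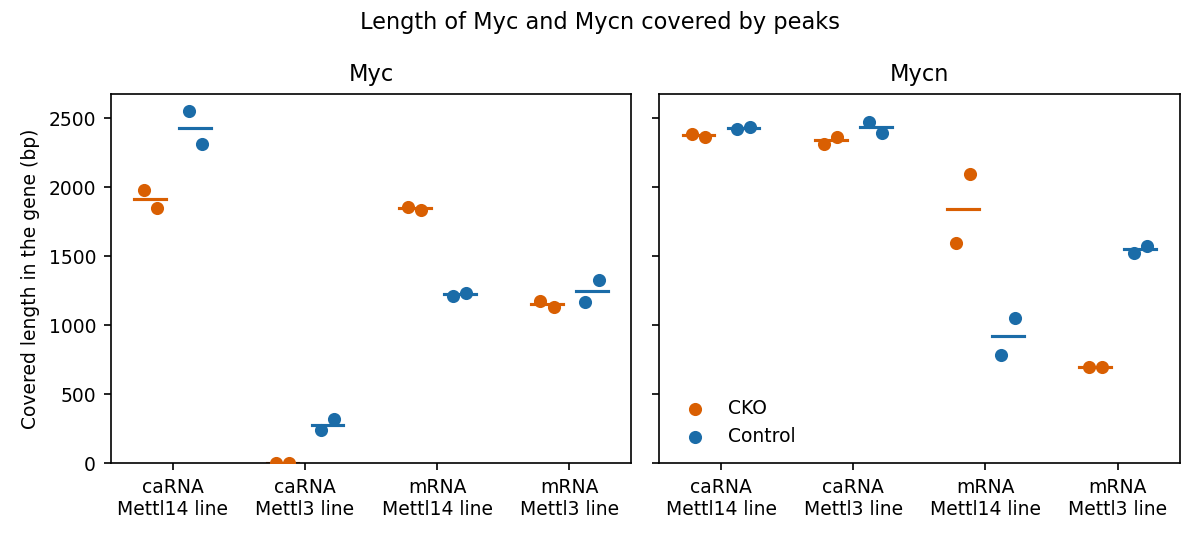
Length of Myc (left) and Mycn (right) covered by peaks, in bp, by RNA fraction and line on the horizontal axis; points are libraries, CKO left of control, and lines are the means of 2. Mycn lies between 2311 and 2473 bp in all caRNA libraries and between 695 and 2093 bp in mRNA, whereas Myc is at 0 to 323 bp in caRNA of the Mettl3 line.

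The comparison of caRNA with mRNA asked whether the marks differ between RNA on chromatin and polyadenylated RNA. Mycn was covered more in caRNA, at 2393 ± 49.8 bp, against 1251 ± 518 bp in mRNA (SD, n = 8 each). The difference of 1142 bp was positive in all 4 pairs of line and genotype, at 531, 1510, 1641 and 885 bp for Mettl14 CKO, Mettl14 Control, Mettl3 CKO and Mettl3 Control. It passed the test (exact permutation p = 0.00154, the smallest possible; adjusted over all genes 0.00498), as did 46.3% of genes in this direction, and the median difference over all genes was 220 bp. The spread in caRNA was small: all 8 libraries had 3 Mycn peaks and lay within 2311 to 2473 bp. Mycn had 3.00 peaks in every caRNA library and 2.25 ± 0.707 in mRNA, a difference of 0.750 that did not pass (exact permutation p = 0.0278, adjusted p = 0.0689), where 31.3% of genes were called higher. With a replicate block, the difference in covered length did not pass (exact permutation p = 0.00781, the smallest possible there, adjusted over 8 tests 0.0625). The caRNA lists were also the longer ones, and the part of list length in these differences was not tested.

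Myc had fewer peaks in caRNA, with 2.13 ± 1.64 per library, against 3.75 ± 0.886 in mRNA (SD, n = 8 each). The difference of -1.63 peaks was negative in all 4 pairs, at -1.0 for Mettl14 CKO, -0.5 for Mettl14 Control, -3.0 for Mettl3 CKO and -2.0 for Mettl3 Control. It passed the test (exact permutation p = 0.00463, adjusted over all genes 0.0187), in a direction called for 2.11% of genes. In the Mettl14 line the CKO mRNA libraries had 5 peaks each, including the antisense peak, and the CKO caRNA libraries 4, all sense. In control caRNA of that line, a broad peak over both internal positions counted as a single peak. Fewer peaks in the Mettl14 line thus did not mean fewer marked sense positions. Alternatives were adjusted over the 8 tests of both genes. The call ended when only sense peaks were counted (-1.38 peaks) or only peaks of at least 2-fold (-1.50 peaks). It also ended with a replicate block (exact permutation p = 0.0156, adjusted p = 0.0625). The sign turned with the 10000 strongest peaks of each list (0.375 peaks). In the Mettl14 line, covered lengths of Myc were 1847 to 2550 bp in caRNA and 1214 to 1859 bp in mRNA.

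Covered length of Myc went opposite ways in the lines. Mean caRNA minus mRNA differences were 64.5 bp for Mettl14 CKO and 1209 bp for Mettl14 Control, against -1153 bp for Mettl3 CKO and -967 bp for Mettl3 Control. The mean over the 4 was -212 bp (exact permutation p = 0.549, adjusted p = 0.630). The fraction effect of the Mettl14 line minus that of the Mettl3 line was 1697 bp, which did not pass (exact permutation p = 0.0509, adjusted over 12 differences 0.306). Line labels were exchanged within each RNA fraction and genotype, so this p-value does not isolate the difference of the fraction effects.

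In caRNA, Myc stood apart between the lines in CKO and in control cells alike, a comparison chosen after the values were seen and given without a test. In CKO cells Myc was covered over 1912 ± 91.9 bp in the Mettl14 line and 0 bp in the Mettl3 line. The log2 ratio of the lines, with 100 bp added to each mean, was 4.33, and 26 of 9777 genes (0.266%) had a higher ratio. Of those 9777 genes, 8.57% had a peak in both Mettl14 CKO libraries and in neither Mettl3 CKO library. Among the 2397 genes with peaks at least as enriched as those of Myc in both Mettl14 CKO libraries, 1.17% had no peak in either Mettl3 CKO library. In control cells Myc was covered over 2431 ± 168 bp in the Mettl14 line and 280 ± 60.8 bp in the Mettl3 line, a log2 ratio of 2.74, with 301 of 10327 genes (2.91%) higher. Mycn had log2 ratios of 0.021 in CKO cells and -0.0029 in control cells, where the medians of all genes were 0.18 and 0.22. In mRNA the Myc log2 ratio was 0.64 in CKO cells and -0.026 in control cells. Line, culture and preparation cannot be told apart here, and RNA levels were not used.

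Across the 16 libraries, 80 of 12848 protein-coding genes with a peak were present and absent in the same libraries as Myc. Ordered by the Pearson correlation of the log2 strongest fold (0 where there was no peak), the first 5 were B3galt4 (0.943), Jph1 (0.931), Dusp6 (0.927), Mcf2l (0.926) and Tmem238 (0.923). Dusp6 encodes a phosphatase that acts on ERK kinases. Mycn shared its presence in all 16 libraries with 5001 genes, of which Sash1 (0.979), Leo1 (0.967), F2r (0.967), Plekhm2 (0.965) and F2rl1 (0.961) came first. These values describe 16 libraries that share depth and fraction differences, and the genes were picked as the highest of many.

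MYC network genes were followed in 5 lists with 61 genes: the MAX network, MYC protein turnover, chromatin cofactors of MYC, binders of MYC mRNA and MYC target genes. In mRNA of the Mettl3 line, 4 of 43 genes marked in both controls were lost (9.3%), where 4.48% of all genes were, and 1 of 41 marked in both CKO libraries was gained (2.44%), where 5.14% were. In mRNA of the Mettl14 line, 2 of 33 were lost (6.06%; all genes 1.97%) and 11 of 45 gained (24.4%; all genes 14.2%). In caRNA of the Mettl3 line, 0 of 52 were lost (all genes 5.9%) and 3 of 55 gained (5.45%; all genes 5.01%). In caRNA of the Mettl14 line, 3 of 51 were lost (5.88%; all genes 5.76%) and 0 of 45 gained, where 3.32% of all genes were gained.

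In the MAX network, Mycl, the third MYC family gene, Max, the repressors Mnt and Mga, and the glucose-responsive factor gene Mlxip had peaks in all 16 libraries. Mycl had folds of 8.54 and 8.29 in Mettl14 CKO caRNA, against 9.01 and 9.84 in Mettl14 Control caRNA. In the Mettl3 line its caRNA folds were 5.93 and 8.02 in CKO libraries, against 12.3 and 13.5 in control libraries. Its mRNA folds in that line were 5.90 and 5.47 in CKO libraries, against 7.93 and 8.60 in control libraries. In Mettl14 mRNA the order was opposite, with Mycl at 12.8 and 9.36 in CKO libraries, against 8.30 and 5.06 in control libraries. Shares of all genes with these orders were not computed. Mxi1, a MAX-binding repressor, was lost in Mettl3 mRNA, with control folds of 4.11 and 3.67, and retained in the other 3 comparisons. Its relatives Mxd1 and Mxd4 were gained in Mettl14 mRNA, with CKO folds of 6.98 and 5.47 for Mxd1 and 5.77 and 7.28 for Mxd4. Mxd3 was unmarked in Mettl3 mRNA, Mlxipl was unmarked in mRNA of both lines, and Mlx had a peak in 1 library.

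Of 14 turnover genes, Fbxw7, the ubiquitin ligase subunit that targets MYC for degradation, was retained in all 4 comparisons. It reached 21.3 and 17.9 in Mettl14 CKO caRNA, against 22.8 and 23.6 in Mettl14 Control caRNA. In caRNA of the Mettl3 line and in mRNA of both lines, both CKO folds of Fbxw7 were instead above both control folds. Shares of all genes with either order were not computed. Usp37, a deubiquitinase, and Aurka, a mitotic kinase that stabilises MYCN, were lost in Mettl3 mRNA, with control folds of 1.85 and 2.84 for Usp37 and 3.36 and 2.96 for Aurka. Usp28, a deubiquitinase of MYC, was gained in Mettl14 mRNA, with CKO folds of 5.06 and 6.20.

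Among 9 chromatin cofactors, Trrap, Kat2a, Kat5 and Ep400 had peaks in all 16 libraries. Ruvbl1, an ATPase subunit of chromatin complexes, was gained in Mettl3 mRNA with CKO folds of 5.28 and 11.8. Its partner Ruvbl2 (3.10 and 3.05) and Zbtb17, which encodes the MYC-binding factor MIZ1 (2.80 and 2.20), were gained in Mettl14 mRNA. Of 7 binders of MYC mRNA, Igf2bp1 was lost in Mettl3 mRNA from control folds of only 1.62 and 1.39. Igf2bp3 was lost in Mettl14 caRNA (control folds 1.68 and 2.28), and the splicing regulator Ptbp1 in Mettl14 mRNA (5.60 and 3.21). Elavl1, the RNA-stabilising protein HuR, was gained in Mettl14 mRNA (5.50 and 3.00).

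Of 20 MYC target genes, Odc1 and Ldha had no peak in any library under the assignment rule. Npm1, a nucleolar chaperone, was lost in Mettl14 mRNA with control folds of 10.1 and 9.95 and gained in Mettl3 caRNA with CKO folds of 5.31 and 5.35. Cad, a pyrimidine synthesis enzyme, was gained in Mettl3 caRNA (CKO folds 4.09 and 2.64) and lost in Mettl14 caRNA (control folds 2.16 and 1.85). Cdk4, a G1 kinase, was gained in Mettl3 caRNA (2.32 and 4.46), and Srm, spermidine synthase, was lost in Mettl14 caRNA (3.19 and 2.90). The nucleolar genes Fbl, Nop58 and Gnl3 and the serine metabolism gene Shmt2 were gained in Mettl14 mRNA, with CKO folds between 1.40 and 4.63. Of the genomic neighbours, Pvt1, the noncoding gene beside Myc, had peaks in 15 libraries and Ddx1, beside Mycn, in 9.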

How the data were processed

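MeRIP-seq peak lists of 16 immunoprecipitation libraries were used, 1 strand-specific list per library without pooling; the 16 input samples were not used. The submitters' processing notes name mm10, CASAVA, Trimmomatic 0.38, HISAT2 2.1.0 and SAMtools 1.9; the peak caller, like its scaling, is not given in the sources used here. The deposited fold enrichment is a ratio per peak, the deposited −log10 p and q are the caller's, and the deposited score was not used for any result. The libraries' kit keeps strand, per the labels' protocols.

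Gene bodies came from a RefSeq table (GRCm38.p6, the build of mm10), and 43 spike-in peaks were set aside. Peaks of 4 libraries were merged per strand at 1 bp overlap into regions, and summits within 100 nt were grouped. Tests were exact stratified permutations (Python 3.11.15, numpy 2.4.6), tested on simulated data, with Benjamini-Hochberg adjustment at 0.05 over all genes; adjustment over the 8 tests of both genes gave the same calls. For lists, the lost or gained members and the whole MAX network are named, apart from results not reported here. Members, lists and tests were chosen with earlier results of these data known. Alternatives were equal list lengths, a 2-fold minimum, sense peaks, gene assignment by overlap, summit matching, a replicate block and leaving out each library.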

Additional observations from a re-analysis of the deposited data

Results flagged for a closer look

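In 5 cases every CKO or caRNA library moved one way in one setting and the opposite way in another; these 5 differences were not tested. The CKO effect on Myc peaks in caRNA was 1.00 in the Mettl14 line and -1.50 in the Mettl3 line, a difference of 2.50 peaks. The 1.00 arose where control libraries had a broad peak over both internal positions and CKO libraries had separate peaks. With regions merged by overlap, all 3 Myc regions were retained there and 0 were gained. In the Mettl14 line, the CKO effect on Myc covered length was -519 bp in caRNA and 625 bp in mRNA, a difference of -1144 bp. For Mycn the same effects were -54.5 bp in caRNA and 925 bp in mRNA, a difference of -979 bp. Both mRNA values come with the shortest control lists of the series. In control cells, the caRNA minus mRNA difference in Myc covered length was 1209 bp in the Mettl14 line and -967 bp in the Mettl3 line, 2176 bp apart. In mRNA, the CKO effect on Mycn covered length was 925 bp in the Mettl14 line and -852 bp in the Mettl3 line, 1777 bp apart.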

How the results depend on the processing

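Of the alternative values computed, 15 moved, 7 reversed, 2 became stronger and 4 weaker, and the other 324 neither changed sign nor crossed the threshold or, for calls and counts of regions, stayed as they were (differences of peak number at or near 0 reached 0 or left it); tests here were adjusted over the 8 tests of both genes, and causes were not tested. With the 10000 strongest peaks per list, the caRNA minus mRNA differences became 0.375 peaks and 373 bp for Myc and 2.13 peaks for Mycn, which then passed, and the CKO effect on Mycn covered length became 112 bp. There, the share of CKO libraries minus that of control libraries with a peak was -0.5 for Myc in Mettl3 mRNA and 0.5 for Mycn in Mettl14 mRNA, both mixed, and 0.0 for Myc in Mettl3 caRNA and Mycn in Mettl3 mRNA, both unmarked; lost regions were 0 for Myc in Mettl3 caRNA and for Mycn in Mettl3 mRNA. A 2-fold minimum gave 28.8 bp for the CKO effect on Myc covered length and -1.50 peaks for Myc caRNA minus mRNA, which no longer passed. Sense peaks alone gave -0.125 and -1.38 peaks for the same Myc contrasts in peaks, the second no longer passing, and 0 gained regions in Mettl14 mRNA. Matching summits within 100 nt gave 0 lost Myc regions in Mettl3 caRNA, 1 gained Myc region in Mettl14 caRNA and 1 gained Mycn region in Mettl14 mRNA. With a replicate block the values stayed at -1.63 peaks (Myc) and 1142 bp (Mycn) for caRNA minus mRNA, and neither passed after adjustment (exact permutation p = 0.0156 for Myc and 0.00781 for Mycn, the smallest this design allows). Within each RNA fraction and line, same-numbered CKO and control replicates did not deviate together (r from -0.00868 to 0.00783). Whether same-numbered caRNA and mRNA replicates belong together was not tested. Leaving out 1 library gave -82.0 to 43.3 bp for the CKO effect on Mycn covered length, positive without replicate 1 of Mettl14 CKO mRNA or replicate 2 of Mettl14 Control mRNA. It gave 0.625 to 0.875 peaks for Mycn caRNA minus mRNA, which passed without replicate 1 of Mettl14 CKO mRNA, -1.75 to -1.50 peaks for Myc, and 1079 to 1204 bp for Mycn covered length. Region calls ranged from 0 to 1 lost (Myc, Mettl3 mRNA), 1 to 2 lost (Myc, Mettl3 caRNA), 1 to 2 gained (Myc, Mettl14 mRNA) and 0 to 1 gained (Mycn, Mettl14 mRNA). Assignment by overlap with the gene body was run for the 8 tests and left their values as they were. Unknown depth limits every missing peak.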
